A study of Astyanax mexicanus with 8 samples.

Results

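The comparison described here is that of spheroids seeded at 100000 cells per well with spheroids seeded at 50000 cells per well, in the SFL and CFL lines of the Mexican tetra, Astyanax mexicanus. It was defined by the libraries alone: the SFL and CFL libraries at 100000 cells were set against the SFL and CFL libraries at 50000 cells, each within its own line, which takes 4 of the 8 libraries of the study. SFL is a liver-derived line of surface fish and CFL a liver-derived line carrying the Pachon cave name in its sample titles. Both are labelled wild type, and each morph is represented by 1 line. All cultures were free-floating spheroids in wells with a surface that prevents attachment, all had a time label of 28 days, and no group received a drug or other agent. Each line gave 1 library at 10000, 25000, 50000 and 100000 cells per well, called 10k, 25k, 50k and 100k below, so no density is replicated within a line, and the labels do not say whether a library holds RNA from 1 spheroid or several.

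The deposited unit is TPM, a length-corrected transcript abundance that has the same total in every library. TPM is therefore a share: when some genes take more of a library, all others take less. Changes are given as the difference, 100k minus 50k, in log2(TPM + 1), which understates the change of genes with low TPM. Each was computed as deposited and again after median-of-ratios scaling, which divides a library by its median ratio to the mean library, so that the typical gene has no change. Fold sizes in counts, such as 1.5-fold, are likewise folds of TPM + 1. TPM keeps no sequencing depth, so the depth behind each value is unknown.

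A spheroid is a ball of cells that hold to each other instead of to plastic, and the larger the ball, the longer the path that oxygen, nutrients and waste must cross to reach or leave its centre. Cells under osmotic or nutrient stress are known to balance their water content with small organic solutes, the compatible osmolytes inositol, taurine, betaine and creatine among them, which they import through sodium-coupled transporters of the SLC5 and SLC6 families or make themselves. Liver cells are further known for secreting plasma proteins such as apolipoproteins, transferrin and complement factors, and for making cholesterol.

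The hepatocyte label was checked against marker genes. Of 23 rows carrying hepatocyte marker names, 10 reached 1 TPM in an SFL library at 50k or 100k and 7 did so in CFL. The summed level of these markers was 459 TPM at 50k and 510.5 TPM at 100k in SFL, where rbp4, the plasma retinol carrier, supplied 226 and 258 TPM. In CFL the sums were 26.3 and 56.8 TPM. The transthyretin gene ttr and the transcription factor gene foxa2 were at 0 in all 4 libraries, and hnf4a, a master regulator of hepatocytes, was at most 0.29 TPM in these 4 libraries. Keratin genes were abundant, with a krt8 row (ENSAMXG00000036187) at 6157 and 4707 TPM at 50k and 100k in SFL and at 555 and 553 TPM in CFL. On the same list of epithelial markers, krt18b was at 5138 and 4206 TPM in SFL and at 542 and 418 TPM in CFL. anxa4 was at 218 and 194 TPM in SFL and at 93.0 and 91.4 TPM in CFL. sox9a was at 1.35 and 2.08 TPM in SFL and at 22.55 and 29.3 TPM in CFL. The other members, epcam, sox9b and another krt8 row (ENSAMXG00000025655), were at most 0.07 TPM in these 4 libraries. The libraries are therefore called by their line names and not by a cell type. In bulk RNA, fewer cells of a type and less RNA per cell cannot be told apart.

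The libraries at 50k, and to a smaller extent those at 100k, stood apart from the 2 smaller densities of their line. The 82 rows named as cytosolic ribosomal protein genes held 22.4% of all TPM in SFL at 50k and 20.7% at 100k, against 17.4% and 17.5% at 10k and 25k. In CFL they held 27.5% at 50k and 23.3% at 100k, against 21.5% and 20.8%. Fewer genes had a TPM above 0 at 50k (17935 in SFL, 17819 in CFL) than at 100k (18089 and 19046). The scaling factors were 0.848 and 0.945 in SFL and 0.788 and 0.921 in CFL at 50k and 100k, so the typical gene was higher at 100k as deposited, by a median of 0.11 in SFL and 0.17 in CFL over the 13783 genes tested. After scaling the medians were -0.0074 and -0.0057. The part of this shift in the deposited values in any single gene was not tested. Counts and medians of gene lists are given under both scalings, and values of single genes as deposited unless stated. The genes named below with a limma adjusted p of 0.0943 had 0.204 after scaling, except the unnamed ENSAMXG00000030717, which had 0.0611. Several genes named below as higher at 100k than at 50k stood higher still at 10k and 25k in both lines. Among them were slc6a6b, slc6a8, slc38a2, slc38a3a, slc16a13, slc23a2, SLC24A2, stat1a, tap1, insig1, scdb, fn1a, col6a3 and csrnp1b. Others, such as tmsb1, were highest at 100k in each line.

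**Figure D1:**
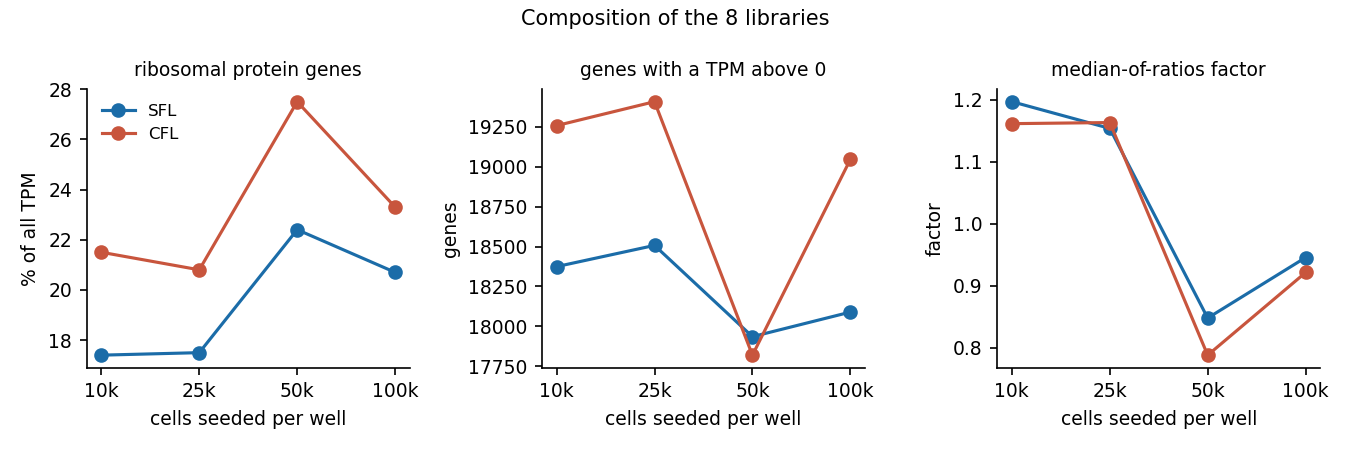
Share of all TPM held by 82 rows named as ribosomal protein genes (%), number of genes with a TPM above 0, and median-of-ratios scaling factor in each of the 8 libraries, against the number of cells seeded; the vertical axes do not start at 0. In both lines the 50k library has the highest ribosomal share (22.4% in SFL, 27.5% in CFL) and the lowest factor (0.848 and 0.788), and the 100k library lies between it and the 2 smaller densities.

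The first question was which genes differ between the 2 seeding densities in both lines. No gene passed an adjusted p-value of 0.05 (0.00% of 13783 genes tested, limma with line and density as terms over all 8 libraries, Benjamini-Hochberg adjustment, smallest adjusted p 0.0943), and none passed after scaling (0.00%, smallest adjusted p 0.0611). At an unadjusted p under 0.05 there were 2387 genes as deposited, 2254 of them higher at 100k and 133 lower, and 1885 after scaling, 1038 higher and 847 lower. The spread in this fit is the disagreement of SFL and CFL about the effect of density, since no other replicate exists. Sign flips of 2 pairs alone cannot give a two-sided p under 0.5, so the changes below are descriptions of 4 libraries, and the agreement of the lines is their only check.

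By size, 366 genes (2.66%) were at least 1.5-fold higher at 100k in both lines as deposited and 26 (0.189%) at least 1.5-fold lower. After scaling the numbers were 178 (1.29%) and 52 (0.377%), so that 93.4% of such genes were higher as deposited and 77.4% after scaling. At 2-fold, 33 genes (0.239%) were higher and 8 (0.0580%) lower as deposited, and 20 (0.145%) and 13 (0.0943%) after scaling. Of the 366 higher genes at 1.5-fold, 16 were listed at 0 in one of the 4 libraries and 180 had a mean of at least 10 TPM. Of the 26 lower genes at that size, 10 were listed at 0 in one library and 0 had a mean of at least 10 TPM. In a single line the same size was reached by 1104 higher genes (8.01%) in SFL and 1593 (11.6%) in CFL, and by 234 lower genes (1.70%) and 173 (1.26%). After scaling these were 700 (5.08%) and 854 (6.20%) higher and 395 (2.87%) and 397 (2.88%) lower. The 366 genes shared by the lines were 33.2% of the SFL genes and 23.0% of the CFL genes. Across all genes, which are not independent of each other, the changes in SFL and CFL correlated with a Pearson r of 0.245 after scaling, and with 0.384 among 7069 genes with a mean of at least 10 TPM.

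**Figure D2:**
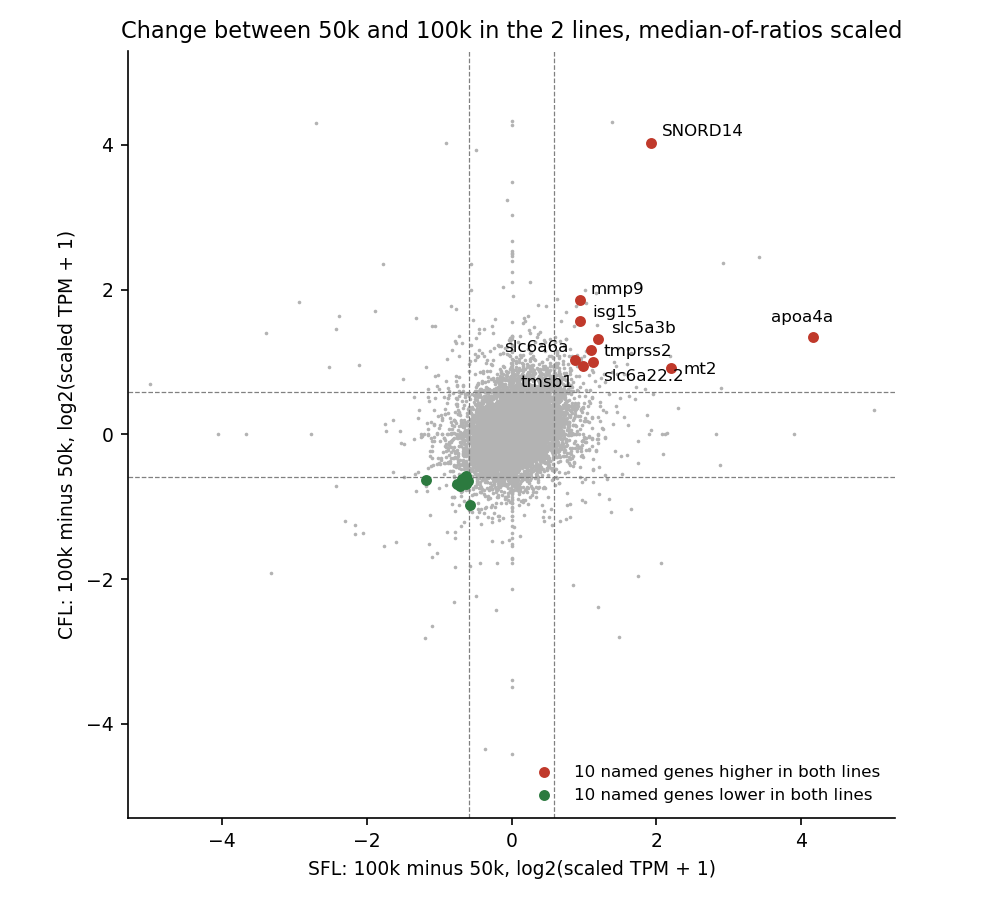
Change in log2(scaled TPM + 1) between 50k and 100k in SFL (horizontal) and CFL (vertical) for 13783 genes, after median-of-ratios scaling; dashed lines mark 1.5-fold, and the 10 genes named by rule in each direction are coloured. Among the coloured genes, the higher ones reach further from the centre (apoa4a 4.16 in SFL, SNORD14 4.03 in CFL) than the lower ones. The farthest of the lower ones is fosl1b at -1.18 in SFL. SNORD14 was listed at 0 in both 50k libraries. Over all genes tested the changes in a line ran from -5.0 to 5.01.

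Several genes that import or make compatible osmolytes were higher at 100k in both lines. slc5a3b (ENSAMXG00000026064), which encodes the sodium-coupled importer of inositol, stood at 35.0 TPM at 50k and 90.9 TPM at 100k in SFL, and at 35.5 and 103.9 TPM in CFL. Both 100k values lay above both 50k values, and the SFL and CFL libraries were close to each other at both of these densities. Its change was 1.44 ± 0.18 (SE, adjusted p = 0.0943), and 1.25 ± 0.19 after scaling (adjusted p = 0.204). Values at the smaller densities were higher still in SFL, with 187 TPM at 10k and 121 TPM at 25k, while CFL had 128 and 91.7 TPM, so the 50k library was the lowest of its line in both.

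The taurine importer is encoded by slc6a6, of which the fish carries a pair of copies. slc6a6a (ENSAMXG00000038150) was at 27.0 and 55.9 TPM at 50k and 100k in SFL and at 20.9 and 50.5 TPM in CFL, with no overlap between densities (change 1.13 ± 0.18, adjusted p = 0.0943). Its copy slc6a6b (ENSAMXG00000004425) was at 175 and 275 TPM in SFL and at 24.2 and 45.5 TPM in CFL, so the SFL libraries were high and the CFL libraries low at both densities (change 0.77 ± 0.15, adjusted p = 0.0983). Taurine can also be made from cysteine, and csad (ENSAMXG00000004864), which encodes the decarboxylase of that route, was at 8.14 and 32.1 TPM in SFL and at 38.6 and 71.8 TPM in CFL. csad was thus higher at 100k than at 50k within each line, although the densities overlap across lines. In SFL csad was at 34.6 TPM at 10k, above its 100k value. Its change was 1.37 ± 0.35 (adjusted p = 0.13).

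The creatine importer gene slc6a8 (ENSAMXG00000017442) was at 24.3 and 42.5 TPM at 50k and 100k in SFL and at 8.34 and 22.8 TPM in CFL, a change of 1.07 ± 0.15 (adjusted p = 0.0943). Both 100k values were still below the lowest value at the smaller densities of the same line, 97.1 TPM in SFL and 51.4 TPM in CFL, both at 25k. slc6a22.2 (ENSAMXG00000002364), another member of the SLC6 family, was at 7.50 and 19.3 TPM in SFL and at 11.4 and 27.6 TPM in CFL, with no overlap between densities. At 10k in SFL it was higher, at 33.9 TPM. slc38a2 (ENSAMXG00000012158), whose product imports small neutral amino acids and is known to respond to osmotic stress in mammals, was at 67.3 and 110.3 TPM in SFL and at 154 and 254 TPM in CFL. Its changes in SFL and CFL were 0.71 and 0.72 (mean 0.71 ± 0.11 SE, adjusted p = 0.0943).

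Inositol can also be made from glucose. ISYNA1 (ENSAMXG00000031770), which encodes inositol-3-phosphate synthase, was at 894 and 1328 TPM at 50k and 100k in SFL and at 484 and 879 TPM in CFL. Its change of 0.71 ± 0.23 had an adjusted p of 0.188, and in SFL it was just short of 1.5-fold (0.57 on the log2 scale). The transcription factor gene nfat5, whose product is known in mammals to switch on osmolyte transporters, has a pair of copies in the table. nfat5a (ENSAMXG00000042441) was at 2.38 and 4.52 TPM in SFL and at 2.33 and 3.32 TPM in CFL, and nfat5b (ENSAMXG00000006405) at 11.6 and 13.9 TPM in SFL and at 17.6 and 22.4 TPM in CFL. Both copies were higher at 100k in both lines, nfat5b by at most 0.33, which drops to at most 0.12 after scaling.

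Of the 33 tested genes on the list of osmolyte genes, 6 were at least 1.5-fold higher in both lines as deposited (2.66% of all genes were) and 4 after scaling (1.29% of all genes), and 0 were lower by that size. The list's median change was nevertheless 0.24 in SFL and 0.26 in CFL, against 0.11 and 0.17 for all genes, and 0.09 and 0.04 after scaling. The list was drawn up after the values of several of its members had been seen, so its count is a description only. By any size, 22 of the 33 were higher and 2 lower in both lines as deposited (54.0% and 10.9% of all genes were). After scaling 15 were higher and 11 lower (29.1% and 32.5% of all genes). Among the members that did not share the pattern was lrrc8da, a subunit of the volume-regulated anion channel. It was at 6.91 and 4.24 TPM in SFL and 7.63 and 8.88 TPM in CFL. Another was an akr1b1.1 copy (ENSAMXG00000030901) of the aldose reductase family that stayed below 1.1 TPM in all 4 libraries.

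**Figure D3:**
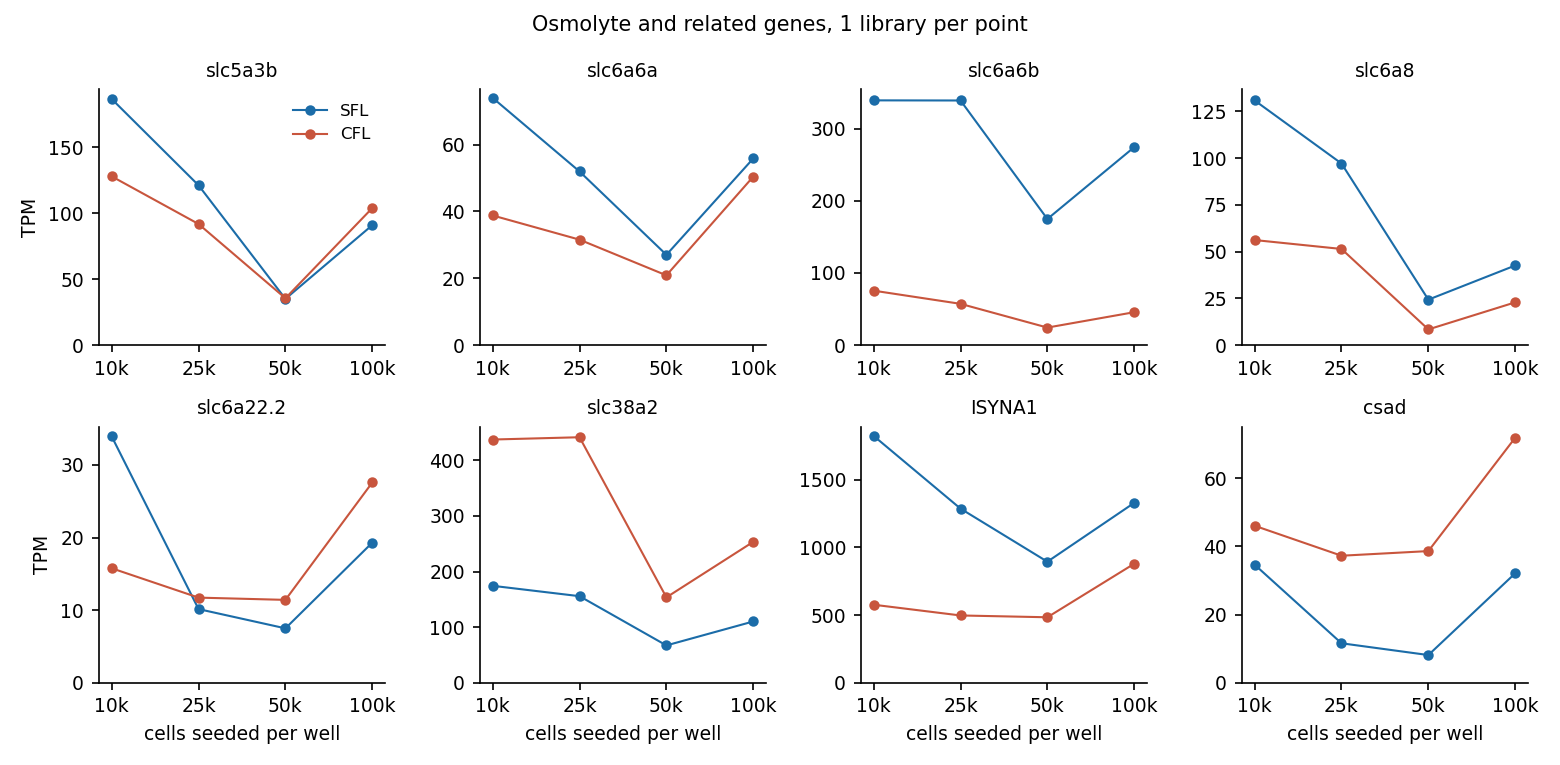
TPM of 8 genes of osmolyte transport or synthesis at each seeding density in SFL (blue) and CFL (red), 1 library per point, with no error bars because no density is replicated. In each panel the 100k value lies above the 50k value of the same line, from 35.0 to 90.9 TPM for slc5a3b in SFL and from 484 to 879 TPM for ISYNA1 in CFL.

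Among all plasma membrane and organelle solute carriers other than the mitochondrial SLC25 family, a list also drawn up after values were seen, 16 of 183 tested genes were at least 1.5-fold higher in both lines (2.66% of all genes were) and 10 after scaling (1.29%). Both counts include osmolyte transporter genes already counted above, among them slc5a3b, slc6a6a, slc6a8 and slc6a22.2, so the counts of the lists are not separate. None of the 183 was lower by that size, which 0.189% of all genes were as deposited and 0.377% after scaling. slc23a2 (ENSAMXG00000019783), the importer of ascorbate, was at 4.99 and 17.0 TPM in SFL and at 5.45 and 12.1 TPM in CFL, with no overlap (change 1.3 ± 0.17, adjusted p = 0.0943). Its level at 10k had been 56.0 TPM in SFL, and 46.1 TPM in the other line, so the 100k libraries were still low within each line. slc38a3a (ENSAMXG00000007148), a glutamine transporter, was at 5.52 and 9.72 TPM in SFL and at 0.61 and 2.24 TPM in CFL. slc16a13 (ENSAMXG00000013028), of the monocarboxylate transporter family, was at 11.8 and 20.6 TPM in SFL and at 2.96 and 6.35 TPM in CFL. The sodium, calcium and potassium exchanger gene SLC24A2 (ENSAMXG00000021601) was at 15.1 and 28.6 TPM in SFL and at 6.87 and 15.1 TPM in CFL.

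The gene of a plasma protein ranked first among the protein-coding genes named by rule. apoa4a (ENSAMXG00000009598), which encodes an apolipoprotein A-IV, a lipid carrier of blood and lymph, was at 11.6 TPM at 50k and 248 TPM at 100k in SFL, and at 1.05 and 4.55 TPM in CFL. The SFL library at 100k was the only one above 12 TPM, since 10k and 25k held 7.57 and 7.83 TPM. The change was 4.30 in SFL and 1.44 in CFL, 2.87 ± 0.80 over both (adjusted p = 0.148), and the difference between the lines had an adjusted p of 0.591. A second row of the same name (ENSAMXG00000036721) was at 1.60 and 12.5 TPM in SFL and at 2.72 and 4.35 TPM in CFL. Another (ENSAMXG00000039639) was at 0.73 and 6.87 TPM in SFL and at 1.74 and 2.08 TPM in CFL. How reads were shared between these copies is not given in the sources used here, so the rows are not independent.

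Other liver genes were higher at 100k too. tfa, for the iron carrier transferrin, was at 5.89 and 9.95 TPM at 50k and 100k in SFL and at 1.16 and 4.77 TPM in CFL, and its change of 1.04 ± 0.21 had an adjusted p of 0.107. c9, for the pore-forming complement component, was at 2.86 and 5.20 TPM in SFL and at 5.67 and 11.6 TPM in CFL. The transcription factor gene cebpa, a regulator of liver and fat cells, was lower at 100k in SFL (114 and 103 TPM) and higher in CFL (4.81 and 13.7 TPM), where the 100k library had the highest value of the line. Of 17 tested hepatocyte genes, 3 were at least 1.5-fold higher in both lines (2.66% of all genes were) and 1 after scaling (1.29%). None was lower by that size, against 0.189% and 0.377% of all genes. Their median change was 0.30 in SFL and 0.52 in CFL, and 0.14 and 0.36 after scaling. serpinc1, for antithrombin, was on the other side, at 5.75 and 4.74 TPM in SFL and at 2.26 and 1.41 TPM in CFL. prox1a, for a transcription factor of liver and lymphatic cells, was at 0.30 and 0.25 TPM in SFL and at 1.23 and 1.03 TPM in CFL.

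An unnamed gene, ENSAMXG00000009607, singled out after its values were seen, had the largest change of all tested genes in SFL. It stood at 5.78, 11.1 and 13.8 TPM at 10k, 25k and 50k and at 526 TPM at 100k, while CFL held between 3.02 and 5.61 TPM at all densities. Its change was 5.16 in SFL and 0.51 in CFL. The difference between the lines had an adjusted p of 0.286, and the shared change, 2.83 ± 1.2, had an adjusted p of 0.287, since the lines disagreed in size. Without the CFL library at 100k the change became 5.38 (limma adjusted p = 0.00949), but SFL is then the only library at 100k, its spread is taken from the other densities, and the gene was picked for that library's value, so this is not read as a change.

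**Figure D4:**
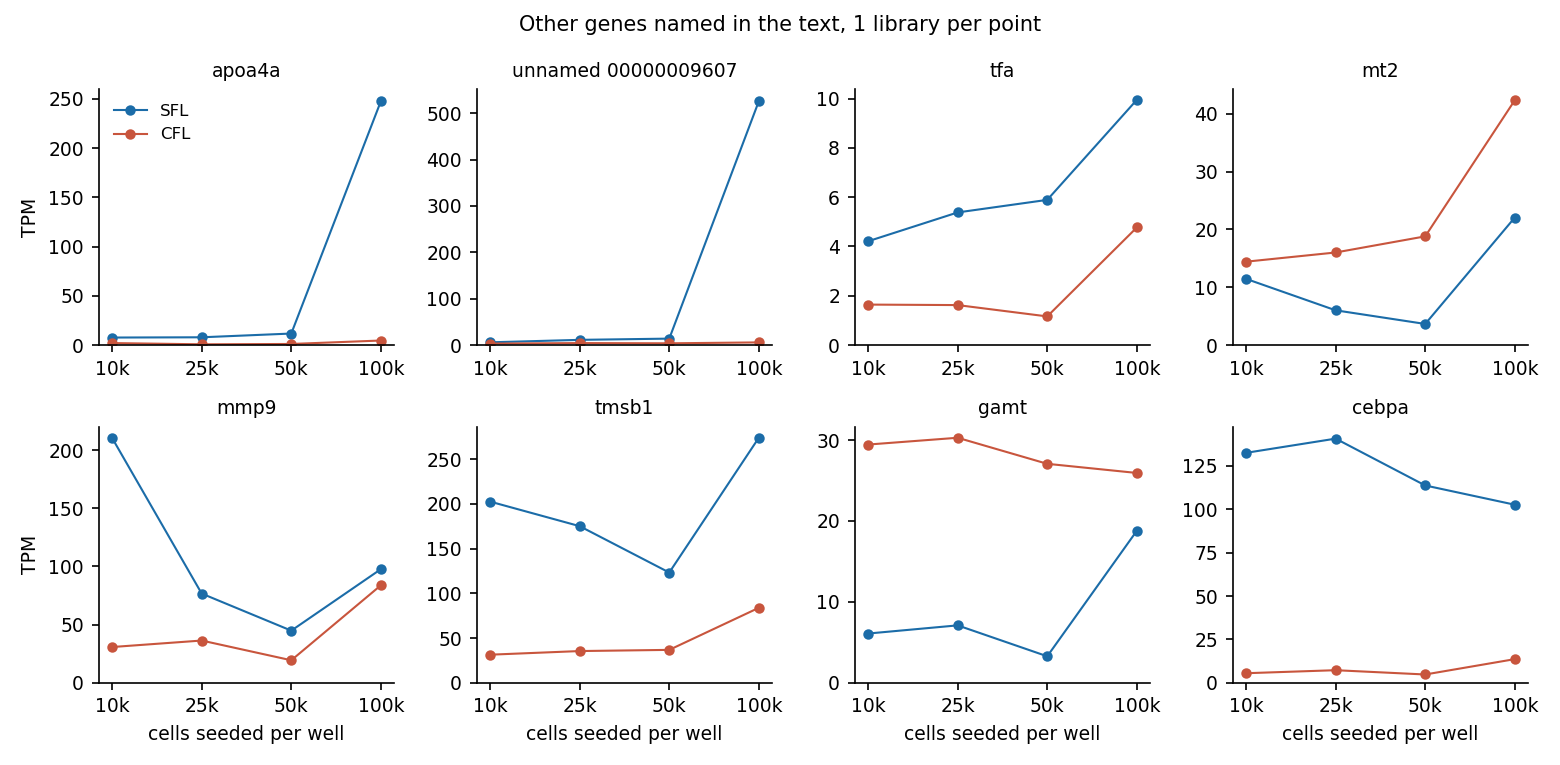
TPM of 8 further genes at each seeding density in SFL (blue) and CFL (red), 1 library per point, each panel with its own vertical axis from 0. apoa4a and the unnamed gene ENSAMXG00000009607 are near the floor except in SFL at 100k (248 and 526 TPM), while tfa, mt2, mmp9 and tmsb1 are higher at 100k than at 50k in both lines and gamt and cebpa in 1 line.

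Genes of matrix breakdown, cell shape and metal binding were among the 10 highest-ranked genes with a symbol. mmp9 (ENSAMXG00000007722), for a secreted gelatinase that cuts basement membrane collagen, was at 44.8 and 97.7 TPM at 50k and 100k in SFL and at 19.4 and 83.8 TPM in CFL, with no overlap between densities (change 1.58 ± 0.49, adjusted p = 0.175). SFL at 10k was higher than either, at 210.4 TPM. tmsb1 (ENSAMXG00000040187), for a thymosin beta that binds actin monomers, was at 123 and 274 TPM in SFL and at 36.8 and 83.8 TPM in CFL, and the 100k library was the highest of each line. tmprss2 (ENSAMXG00000043741), for a membrane-bound serine protease, was at 3.10 and 8.52 TPM in SFL and at 29.2 and 77.9 TPM in CFL. In SFL it was higher at 10k and 25k, at 18.1 and 10.6 TPM. The metallothionein gene mt2 (ENSAMXG00000035436), whose product binds zinc and copper, was at 3.64 and 22.05 TPM in SFL and at 18.8 and 42.3 TPM in CFL, again the highest value of each line at 100k (change 1.72 ± 0.36, adjusted p = 0.108). A second, more abundant mt2 row (ENSAMXG00000043108) went the other way, at 212 and 193 TPM in SFL and at 1342 and 1196 TPM in CFL, so the sum of both rows was not higher at 100k. The other members of this group were isg15, slc5a3b, slc6a6a, slc6a22.2, apoa4a and a SNORD14 row. SNORD14 (ENSAMXG00000034987) names a small nucleolar RNA, which has no poly(A) tail, and libraries of polyadenylated RNA do not measure it reliably. It was listed at 0 in both 50k libraries and at 2.65 and 14.1 TPM at 100k in SFL and CFL.

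Several interferon-response genes were higher at 100k than at 50k in both lines. stat1a, for the transcription factor that carries interferon signals to the nucleus, was at 8.36 and 15.97 TPM at 50k and 100k in SFL and at 6.63 and 11.8 TPM in CFL, with no overlap (change 0.80 ± 0.11, adjusted p = 0.0943). tap1, for a subunit of the peptide transporter of antigen presentation, was at 3.05 and 5.99 TPM in SFL and at 6.6 and 13.5 TPM in CFL. At 10k and 25k both genes were higher still in each line. stat1a was there at 26.4 and 23.5 TPM in SFL and at 20.1 and 17.0 TPM in CFL. isg15 has several rows, for a ubiquitin-like protein induced by interferon. The row named by rule (ENSAMXG00000029458) was listed at 0 at 50k and at 0.87 TPM at 100k in SFL, and was at 9.5 and 34.8 TPM in CFL. Another row (ENSAMXG00000035639) was listed at 0 in both SFL libraries and was at 16.8 and 50.3 TPM in CFL. A further row (ENSAMXG00000030334), the most abundant, was at 3.03 and 1.95 TPM in SFL and at 26.03 and 62.4 TPM in CFL. In CFL the 100k library was thus the highest of the line for all 3 rows, while in SFL the rows were low and did not share a direction. Of 25 tested genes of the list, 14 were higher in both lines by any size as deposited, close to the 54.0% of all genes, and 13 after scaling, where 29.1% of all genes were. At least 1.5-fold higher in both lines were 3 genes (2.66% of all genes) and 2 after scaling (1.29%), and 0 were lower, with a median change of 0.03 in SFL and 0.54 in CFL, and 0.01 and 0.41 after scaling. The difference between these medians was not tested. The counts at 1.5-fold include the isg15 row ENSAMXG00000029458, near the floor in SFL, beside tap1 and, as deposited only, stat1a. psmb9a, an immunoproteasome subunit, was lower at 100k in both lines, with 40.7 and 29.7 TPM in SFL and 106.6 and 93.0 TPM in CFL. tap2a (ENSAMXG00000014061) was listed at 0 in both SFL libraries and was at 7.95 and 4.37 TPM in CFL.

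Marker genes of leukocytes were summed beside this list. The sum was 51.0 and 57.7 TPM at 50k and 100k in SFL and 36.7 and 54.6 TPM in CFL, nearly all of it from 1 MPEG1 row. PTPRC, the pan-leukocyte surface marker, was at most 0.26 TPM and spi1b at most 0.06 TPM in these 4 libraries. Endothelial markers summed to 125 and 131 TPM in SFL and 18.3 and 20.3 TPM in CFL, most of it from kdr and kdrl, with cdh5 at 0. kdr was at 75.4 and 70.8 TPM in SFL and at 2.27 and 2.51 TPM in CFL. kdrl was at 44.95 and 57.6 TPM in SFL and at 14.6 and 16.55 TPM in CFL. Stellate, fibroblast or smooth muscle markers summed to 668 and 657 TPM in SFL and 184 and 201 TPM in CFL, with hand2 at 0. Of these tagln was at 336 and 360 TPM in SFL and at 72.9 and 70.6 TPM in CFL. col1a2 was at 177 and 150 TPM in SFL and at 96.7 and 110 TPM in CFL. acta2 was at 101 and 103 TPM in SFL and at 0.43 and 0.17 TPM in CFL. The part of these cell types in any result was not tested.

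The genes named as lower at 100k in both lines had smaller changes than those named as higher. The most abundant was ppdpfb (ENSAMXG00000044121), a homolog of a factor known from pancreas development in zebrafish, at 3247 and 2215 TPM at 50k and 100k in SFL and at 963 and 688 TPM in CFL, a change of -0.52 ± 0.21 (adjusted p = 0.279). fosl1b (ENSAMXG00000006076), an AP-1 transcription factor subunit, was at 12.5 and 5.62 TPM in SFL and at 31.4 and 23.3 TPM in CFL. The SFL library at 100k had the lowest fosl1b value of the study. her9 (ENSAMXG00000040619), a repressor of the hairy family, was at 4.75 and 2.75 TPM in SFL and at 17.8 and 12.6 TPM in CFL. dut (ENSAMXG00000035045), whose enzyme removes dUTP before DNA synthesis, was at 31.6 and 22.8 TPM in SFL and at 63.3 and 46.9 TPM in CFL. gtf2a2 (ENSAMXG00000033092), a subunit of the general transcription factor TFIIA, was at 73.5 and 52.2 TPM in SFL and at 82.7 and 63.1 TPM in CFL, with no overlap. The others in rank were naa38, a subunit of a protein acetyltransferase, tex36, mettl24, grapa and a U3 row, with changes between -0.45 and -0.63. After scaling these 10 changes ran from -0.60 for grapa to -0.91 for fosl1b.

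Cytosolic ribosomal protein genes made up the most uniform group. Of 80 tested genes, 66 were lower at 100k in both lines as deposited, where 10.9% of all genes were, and 77 after scaling, where 32.5% were. Their median change was -0.15 in SFL and -0.21 in CFL, and -0.31 and -0.43 after scaling. Under either scaling 0 reached 1.5-fold in both lines. By that size 2.66% of all genes were higher and 0.189% lower as deposited, and 1.29% and 0.377% after scaling. rps12 was at 993 and 791 TPM at 50k and 100k in SFL and at 883 and 705 TPM in CFL, a change of -0.33 ± 0.09 (adjusted p = 0.143). rpl10 was at 5962 and 4821 TPM in SFL and at 5440 and 4518 TPM in CFL. rpl19 was the opposite, at 240.2 and 288 TPM in SFL and at 132 and 157 TPM in CFL. rps27l was at 5212 and 6181 TPM in SFL and at 513 and 549 TPM in CFL, but its mean change of 0.17 became -0.02 after scaling.

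Other highly expressed machinery was lower at 100k in more genes after scaling than as deposited, where 32.5% and 10.9% of all genes were lower in both lines. Of 75 mitochondrial ribosomal protein genes, 63 were lower in both lines after scaling and 26 as deposited. Of 89 nuclear genes of oxidative phosphorylation, 71 were lower after scaling and 30 as deposited, with medians of -0.19 in SFL and -0.23 in CFL after scaling. Among them atp5f1e, an ATP synthase subunit, was at 756 and 677 TPM in SFL and at 1332 and 1032 TPM in CFL, and NDUFS8, a complex I subunit, at 29.0 and 23.9 TPM in SFL and at 202.4 and 136 TPM in CFL. ndufs4 was at 1.33 and 0.70 TPM in SFL and was listed at 0 at 50k and at 2.74 TPM at 100k in CFL. cox5b2 was at 1.56 and 3.57 TPM in SFL and below 0.10 TPM in CFL. For proteasome subunits the numbers were 37 of 45 after scaling and 9 as deposited, for splicing factors 42 of 58 and 18, for translation factors 42 of 60 and 17, and for ribosome biogenesis 25 of 34 and 3. Level moved with these results: after scaling, the 1226 genes with a mean of at least 100 TPM had medians of -0.13 in SFL and -0.15 in CFL, and the 4219 genes between 1 and 5 TPM had 0.03 and 0.04. The part of level in the changes of these lists was not tested.

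More cell cycle genes were lower at 100k in both lines after scaling than as deposited, as was true of all genes (32.5% and 10.9%). Of 38 DNA replication genes, 30 were lower in both lines and 0 higher after scaling (32.5% and 29.1% of all genes were). As deposited 15 were lower and 4 higher (10.9% and 54.0% of all genes). The medians were -0.19 in SFL and -0.004 in CFL as deposited and -0.31 and -0.21 after scaling. gins3, part of the replicative helicase, was at 7.53 and 4.19 TPM in SFL and at 20.9 and 19.9 TPM in CFL. The ribonucleotide reductase genes rrm1 and rrm2b were the highest-ranked of the list, with changes of 0.16 each as deposited that turned to -0.03 and -0.007 after scaling. Of 42 mitosis genes, 28 were lower in both lines after scaling (32.5% of all genes were) and 10 as deposited (10.9%). ccnb1, for the mitotic cyclin B, was at 16.1 and 13.1 TPM in SFL and at 30.1 and 23.8 TPM in CFL, and cdca8, for a chromosomal passenger protein, at 5.25 and 4.17 TPM in SFL and at 14.3 and 10.9 TPM in CFL. prc1b, for a spindle midzone protein, and bub1bb, for a spindle checkpoint kinase, were higher as deposited (bub1bb in SFL by 0.02, and -0.06 after scaling), prc1b at 4.13 and 5.50 TPM in SFL and at 4.15 and 8.43 TPM in CFL.

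**Figure D5:**
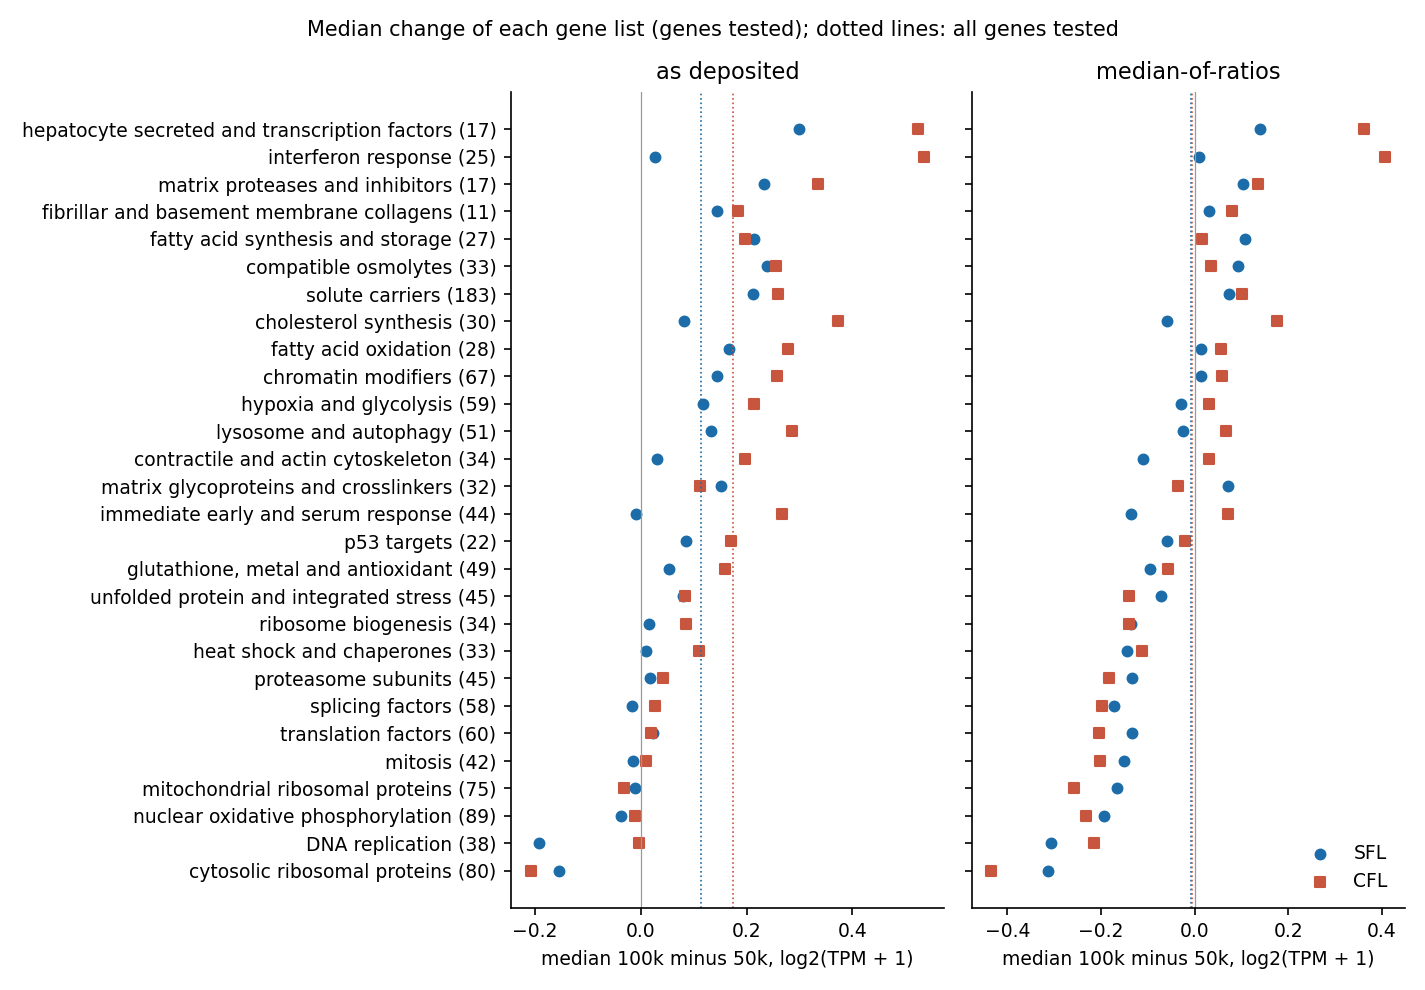
Median change in log2(TPM + 1) between 50k and 100k of 28 gene lists, with the number of genes tested, in SFL (circles) and CFL (squares), as deposited (left) and after median-of-ratios scaling (right); dotted lines are the medians of all genes tested. Cytosolic ribosomal protein genes have the lowest medians after scaling (-0.31 and -0.43), and hepatocyte (0.14 and 0.36) and interferon genes (0.01 and 0.41) the highest in CFL. The hepatocyte medians rest on 17 tested of 44 listed rows and include apoa4a rows that are not independent.

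Matrix genes went in both directions. col4a2, for a collagen of basement membranes, was at 2.58 and 1.36 TPM at 50k and 100k in SFL and at 1.90 and 0.68 TPM in CFL, and was the 1 of 11 tested collagen genes at least 1.5-fold lower in both lines. col6a3 was the 1 at least 1.5-fold higher as deposited, at 2.28 and 5.71 TPM in SFL and at 1.41 and 2.77 TPM in CFL, and it was no longer 1.5-fold higher in CFL after scaling (0.52). col5a2a was at 5.87 and 7.17 TPM in SFL and at 57.8 and 108.4 TPM in CFL, while col1a1a was at 35.4 and 27.2 TPM in SFL and at 4.14 and 3.42 TPM in CFL. Of 32 matrix glycoprotein and crosslinker genes, 0 were 1.5-fold apart in TPM + 1 in both lines in either direction. Beside this and the collagen counts, 2.66% of all genes were higher and 0.189% lower by that size as deposited. After scaling the shares of all genes were 1.29% and 0.377%. fn1a, for fibronectin, was at 274 and 359 TPM in SFL and at 1010 and 1874 TPM in CFL (change 0.64 ± 0.12, adjusted p = 0.0991), so the CFL libraries were high at both densities. LTBP3, a binder of latent TGF-beta, was at 0.48 and 1.11 TPM in SFL and at 13.7 and 26.5 TPM in CFL. Its SFL change of 0.51 was short of 1.5-fold in TPM + 1, though not in TPM. sparc, for a collagen-binding protein, was lower, at 114 and 84.2 TPM in SFL and at 860 and 717 TPM in CFL. MFAP2 was listed at 0 in SFL and was at 4.89 and 2.12 TPM in CFL. Besides mmp9, the protease list of 17 tested genes held HTRA3, at 6.77 and 16.9 TPM in SFL and at 11.9 and 15.8 TPM in CFL. Its relative htra1a was at 4.37 and 2.97 TPM in SFL and at 15.96 and 14.9 TPM in CFL, and mmp19 at 33.8 and 28.5 TPM in SFL and at 7.88 and 7.94 TPM in CFL.

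Among lipid genes, some of sterol control and of fat storage were higher at 100k. insig1, which holds back the sterol-sensing machinery and is itself a sterol-regulated gene, was at 60.2 and 104.6 TPM in SFL and at 4.65 and 13.1 TPM in CFL, a change of 1.05 ± 0.25 (adjusted p = 0.113). An mvk row for mevalonate kinase (ENSAMXG00000038133) was at 1.06 and 2.37 TPM in SFL and was listed at 0 at 50k and at 0.48 TPM at 100k in CFL. acat2 was level, at 246 and 243 TPM in SFL and at 64.2 and 63.9 TPM in CFL, and ebp, a sterol isomerase, was at 46.2 and 35.0 TPM in SFL and below 0.2 TPM in CFL. The 30 tested genes had medians of 0.08 in SFL and 0.37 in CFL, and -0.06 and 0.18 after scaling, a difference that was not tested. insig1 alone was at least 1.5-fold higher in both lines as deposited (2.66% of all genes were), and insig1 and mvk, 2 genes, after scaling (1.29%). The 27 genes of fatty acid synthesis and storage had medians of 0.21 in SFL and 0.20 in CFL, and 0.11 and 0.02 after scaling. scdb, a stearoyl-CoA desaturase, was at 64.1 and 99.8 TPM in SFL and at 108 and 159 TPM in CFL, and plin2, a coat protein of lipid droplets, at 87.9 and 119 TPM in SFL and at 30.7 and 46.1 TPM in CFL. Malic enzyme gene me1 was at 518 and 497 TPM in SFL and at 2.13 and 0.84 TPM in CFL, and dgat1b at 3.44 and 3.07 TPM in SFL and at 3.79 and 3.69 TPM in CFL.

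Genes of hypoxia and glycolysis did not reach 1.5-fold in TPM + 1 in both lines in either direction, 0 of 59 under both scalings. Of all genes, 2.66% were higher and 0.189% lower by that size as deposited, and 1.29% and 0.377% after scaling. With shares this small, the count of 0 is not read as a trait of the list. ldha, for lactate dehydrogenase, was at 199 and 160 TPM in SFL and at 223 and 196 TPM in CFL, with no overlap between densities (change -0.25 ± 0.09, adjusted p = 0.221). ddit4, an inhibitor of mTOR induced by low oxygen, was at 17.7 and 12.4 TPM in SFL and at 58.5 and 49.4 TPM in CFL. pdk3b, of the pyruvate dehydrogenase kinase family, was at 1.23 and 3.50 TPM in SFL and at 1.56 and 2.34 TPM in CFL. gapdhs was at 1.54 and 4.08 TPM in SFL and at 2.76 and 4.01 TPM in CFL. The list's medians of 0.12 in SFL and 0.21 in CFL were near those of all genes, as were the -0.03 and 0.03 after scaling.

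In the lysosome and autophagy list, 34 of 51 tested genes were higher in both lines as deposited and 0 lower (54.0% and 10.9% of all genes were). After scaling 19 were higher and 10 lower (29.1% and 32.5% of all genes). ulk1a, for the kinase that starts autophagy, was at 2.35 and 5.36 TPM in SFL and at 10.6 and 21.7 TPM in CFL, with changes of 0.93 and 0.96 in the 2 lines (0.94 ± 0.12, adjusted p = 0.0943). gabarapl2, of the autophagosome membrane, was at 15.5 and 29.2 TPM in SFL and at 34.4 and 43.1 TPM in CFL. The protease genes ctsz and ctsla differed in direction between the lines as deposited, but were lower in both lines after scaling. They were at 11.3 and 9.29 TPM and at 1345 and 1214 TPM in SFL, and at 53.2 and 58.6 TPM and at 687 and 730.2 TPM in CFL.

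Immediate early genes are induced within minutes by serum or stress. csrnp1b was at 13.4 and 21.6 TPM in SFL and at 17.7 and 27.3 TPM in CFL, with no overlap between densities (change 0.63 ± 0.12, adjusted p = 0.0971). fosl2 was at 42.6 and 47.9 TPM in SFL and at 30.6 and 60.3 TPM in CFL, and dusp2, a phosphatase of MAP kinases, at 2.27 and 1.87 TPM in SFL and at 0.69 and 0.27 TPM in CFL. The 44 tested genes had medians of -0.009 in SFL and 0.27 in CFL, and -0.14 and 0.07 after scaling.

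The second question was whether the 2 lines differed in their change. No gene passed (0.00% of 13783 genes, limma interaction contrast, smallest adjusted p 0.0815, 849 genes at an unadjusted p under 0.05), nor after scaling (0.00%, 918 unadjusted). In this fit the 10k and 25k libraries of a line were taken as alike and gave the spread, so each 50k or 100k library was assumed to vary as those do. Taken by line in the same fit, 7 genes (0.0508%) differed between 100k and 50k in SFL and 5 (0.0363%) in CFL at an adjusted p under 0.05. Of these, 5 in SFL and 5 in CFL were listed at exactly 0 in one of the 2 libraries, where an estimate can have failed, and were not read as changes. The other SFL calls were gamt (ENSAMXG00000040744), for the methyltransferase that makes creatine, and the unnamed ENSAMXG00000039005. gamt rose from 3.28 TPM at 50k to 18.8 TPM at 100k in SFL (change 2.21, adjusted p = 0.0433), above its 6.09 and 7.10 TPM at 10k and 25k, while CFL held 27.1 and 25.9 TPM. After scaling gamt no longer passed. ENSAMXG00000039005 rose from 3.54 to 35.5 TPM in SFL (adjusted p = 0.0277), while CFL stayed at or below 0.51 TPM. Of the CFL calls, gng12a (ENSAMXG00000016868), for a G protein gamma subunit, was listed at 0 at 50k, was at 7.78 TPM at 100k, and was at 13.7 and 10.4 TPM at 10k and 25k.

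Opposite changes of at least 1.5-fold were seen as deposited in 19 genes (0.138%) higher in SFL and lower in CFL, and in 50 genes (0.363%) the other way. After scaling the numbers were 27 (0.196%) and 45 (0.326%). ntf3 (ENSAMXG00000030669), for the nerve growth factor relative neurotrophin-3, was at 0.97 and 0.25 TPM at 50k and 100k in SFL and at 8.05 and 16.3 TPM in CFL. rhbdd2 (ENSAMXG00000042892), of the rhomboid family, was at 10.8 and 5.97 TPM in SFL and at 1.99 and 4.48 TPM in CFL, so SFL was above CFL at both densities and the gap was narrower at 100k. TNNC1 (ENSAMXG00000024706), for troponin C, was listed at 0 at 50k and at 0.66 TPM at 100k in SFL and was at 22.5 and 14.7 TPM in CFL.

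Some genes passed a limit of expression at 50k or 100k in 1 line and were low in the other. The limit was at least 5 TPM at either of these densities in that line and under 1 TPM at both in the other. Of the 17254 genes with a symbol, it was met by 232 in SFL and 201 in CFL, and the smaller densities were not asked of them. Under 1 TPM includes genes that were listed above 0. In SFL, sod3a (ENSAMXG00000025767), for secreted superoxide dismutase, was at 5.69 and 26.4 TPM at 50k and 100k. At 10k and 25k it was at 10.5 and 11.02 TPM, above the 50k value and below the 100k value. fgf21 (ENSAMXG00000040056), for a liver-secreted hormone of fasting, was at 1.85 and 5.38 TPM, below its 12.3 TPM at 10k. ptgr1 (ENSAMXG00000035558), for prostaglandin reductase, was the lower protein-coding gene, at 45.4 and 25.0 TPM. This concerns that row only, since another ptgr1 row (ENSAMXG00000004989) was at 17.7 and 14.4 TPM in SFL and at 7.85 and 6.47 TPM in CFL. The remaining SFL gene was a U1 row (ENSAMXG00000040812), at 13.3 TPM at 50k and listed at 0 at 100k. In CFL all 4 genes chosen by the rule were small noncoding or ribosomal RNAs. SNORD33 and a U3 row (ENSAMXG00000036046) were listed at 0 at 50k and were at 17.7 and 16.9 TPM at 100k. SNORD24 and a 5_8S_rRNA row (ENSAMXG00000039677) were at 16.1 and 7.52 TPM at 50k and listed at 0 at 100k. At 10k the 5_8S_rRNA row was at 7.63 TPM in SFL and listed at 0 in CFL, so it was not absent from SFL.

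The lists not yet described had no more than 1 gene at least 1.5-fold apart in both lines in either direction. Across all genes 2.66% were higher and 0.189% lower by that size as deposited, and 1.29% and 0.377% after scaling. These lists were fatty acid oxidation, p53 targets, heat shock and chaperones, unfolded protein and integrated stress, chromatin modifiers, contractile and actin cytoskeleton, and glutathione, metal and antioxidant genes. Of all genes, 54.0% were higher in both lines by any size as deposited and 29.1% after scaling. Of the 28 fatty acid oxidation genes, 23 were higher as deposited and 11 after scaling. Of the 67 chromatin modifier genes, 45 and 24 were higher, not far from the shares of all genes. In the p53 list the medians were 0.09 in SFL and 0.17 in CFL, and -0.06 and -0.02 after scaling. For heat shock and chaperone genes they were 0.009 and 0.11, and -0.14 and -0.11 after scaling.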

How the data were processed

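RNA of 8 spheroid libraries was sequenced. Per the labels' protocols, libraries were stranded, made after poly(A) selection, and sequenced from one end. The authors deposited 1 table of TPM values per gene and library; STAR 2.7.3a and RSEM 1.3.0 are named in the submitters' processing notes, without their roles. The genome build, annotation and strand setting are not given in the sources used here. The table lists 27420 genes, 18766 of them named, and 0 value columns were left unmapped.

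From these values log2(TPM + 1) was computed for 13783 genes with a mean of at least 1 TPM over 8 libraries, and tested with limma 3.58.1 in R 4.3.3 (line as the block that pairs libraries, taken from the cell-line label, density as a factor; mean-variance trend; Benjamini-Hochberg adjustment, threshold 0.05). The p-values measure the spread between these libraries only, which may be technical. Scripts were tested on simulated data with the spread of the main fit. For changes of 0.585 (1.5-fold), 1 and 2 in both lines, the main fit recovered 0%, 84.5% and 99.5%. At a change of 1, 8.15% of its calls were false. For changes in CFL alone, the interaction contrast recovered 0%, 0% and 72.5%. The simulated noise was normal, with spreads already moderated by limma, so these shares can overstate what the fit finds in the data. As deposited, 33 genes were at least 2-fold higher in both lines, and none passed. The counts of 0 genes passing therefore do not show that changes of 1.5-fold or 2-fold were absent. Python 3.11.15, pandas 2.3.3 and numpy 2.4.6 gave counts and medians. Alternatives were median-of-ratios or quantile scaling, a pseudocount of 0.1, a minimum of 5 TPM or none, the 4 compared libraries alone, no block, 2-fold, and each library left out.

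Genes were named by rule: 10 higher and 10 lower in both lines under both scalings, with a symbol and a mean of at least 5 TPM at either density, ranked by the smaller change after scaling; 3 and 3 in opposite directions; 2 and 2 per line among genes of at least 5 TPM there and under 1 TPM in the other line; and the 2 highest and 2 lowest of each list described. slc6a6b, slc6a8, slc38a2, csad, ISYNA1, nfat5a, nfat5b, slc23a2, slc38a3a, slc16a13, SLC24A2, tfa, c9, cebpa, stat1a, gamt, gng12a, the other rows of isg15, mt2 and ptgr1, the last apoa4a row and the unnamed genes were chosen after their values were seen. The comparison and the lists were chosen with earlier results of these data known. A comparison by protein length was not run.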

Additional observations from a re-analysis of the deposited data

Results flagged for a closer look

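For 6 genes the 2 lines changed in opposite directions between 50k and 100k under both scalings. The difference, CFL change minus SFL change, was -1.32 for TNNC1 (limma adjusted p = 0.901), 1.59 for ntf3 (0.789) and 1.63 for rhbdd2 (0.46). It was 3.06 for a SNORD14 row (ENSAMXG00000042492, adjusted p = 0.0815), at 2.81 TPM and listed at 0 in SFL and at 4.83 and 11.8 TPM in CFL. It was -1.24 for each of a pair of U1 rows with the same values in all 4 compared libraries, 6.63 and 12.2 TPM in SFL and 39.1 and 28.3 TPM in CFL (adjusted p = 0.973 for ENSAMXG00000035942 and 0.875 for ENSAMXG00000036717, whose CFL values at 25k were 0 and 38.8 TPM). None of the 6 differences passed the threshold. Each rests on 1 library per line and density, and small noncoding RNAs are not measured reliably after poly(A) selection.

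The median change of the immediate early and serum response list was -0.00944 in SFL and 0.266 in CFL, and kept these signs after median-of-ratios scaling. This difference was not tested.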

How the results depend on the processing

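The count of genes that differ between 100k and 50k stayed at 0 with median-of-ratios or quantile scaling, a minimum of 5 TPM, no filter and the 4 compared libraries alone. Without the replicate block, that is without pairing by line, it was also 0 (225 genes at an unadjusted p under 0.05). A pseudocount of 0.1 gave 1 gene, the unnamed ENSAMXG00000030717, listed at 0 at 50k in both lines. Leaving out 1 library gave 0 to 3 genes, also with scaling, an alternative added after seeing the data: 3 without SFL at 50k (gng12a, SNORD24, ENSAMXG00000036201), and as deposited 2 without CFL at 100k (ENSAMXG00000009607, ENSAMXG00000027237), where scaling gave 3. The count of genes whose change differs between the lines, 0, became 5 with a pseudocount of 0.1, 1 with a minimum of 5 TPM and 72 with no filter, of which 71 had equal values at 10k and 25k in both lines. By line, 7 calls in SFL became 3 with a pseudocount of 0.1 and 69 with no filter, and 5 in CFL became 2, 1 with a minimum of 5 TPM and 39 with no filter.

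The number of genes at least 1.5-fold higher at 100k in both lines, 366, became 178 with median-of-ratios scaling, 106 with quantile normalization, 838 with a pseudocount of 0.1 and 33 at 2-fold. The number of genes at least 1.5-fold lower at 100k in both lines, 26, became 52, 63, 56 and 8, and 5 with a minimum of 5 TPM. With 1 line alone the counts ran from 1104 to 1593 higher and from 173 to 234 lower.

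Of 946 alternatives for 112 named genes, 910 kept direction and side of the threshold, 26 reversed, 6 passed it and 4 lost it. None of the reversed values had passed. With scaling, rps27l became -0.0191, rrm1 -0.0298 and rrm2b -0.00745 (-0.0406 with quantile normalization). Leaving out 1 library, the change ran from -0.0341 to 0.379 for rps27l, -0.18 to 1.63 for ndufs4, -0.0411 to 0.753 for cox5b2, -1.06 to 0.146 for MFAP2, -0.461 to 0.231 for mmp19, -0.532 to 0.0521 for ebp, -0.048 to 0.0243 for acat2, -0.221 to 0.0655 for dgat1b, -0.461 to 0.269 for prox1a, -0.885 to 0.148 for tap2a, -0.683 to 0.0825 for dusp2, -0.336 to 0.214 for ctsz, -0.165 to 0.104 for ctsla, -1.02 to 0.2 for akr1b1.1, -0.493 to 0.0937 for lrrc8da, -0.12 to 1.31 for cebpa and -4.6 to 0.735 for ENSAMXG00000027237. Of 196 alternatives for list medians, 76 moved by more than the spread between the lines. The causes were not tested, except that some moves of the counts by fold size follow by construction. Of these, 2-fold is stricter, a minimum of 5 TPM removes genes, a pseudocount of 0.1 enlarges changes, and 1 line asks less than both. TPM gives no depth, so how far depth limits low genes is unknown.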
